A study of Mus musculus with 8 samples.

Results

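The translation efficiency (TE) of genes was measured by ribosome profiling in undifferentiated mouse embryonic stem cells (ESCs) that lack Dis3l2, an exoribonuclease that degrades structured non-coding RNAs. The cells carried a Dis3l2 -/- genotype made by CRISPR/Cas9 gene editing and were kept in LIF and serum. Within these knockout cells 2 libraries of ribosome-protected fragments (RPFs) were set against 2 libraries of input mRNA. A gene was taken in where its mean input was at least 10 and its mean RPF at least 50 in the deposited normalised units, which left 6190 of 8125 listed genes. The number of knockout clones behind the 2 replicates is not stated in the sources. The heterozygous libraries of the series were not used, so nothing here says whether a value is particular to the loss of Dis3l2. Dis3l2 itself was not analysed here, and the genotype rests on the names of the library columns. The sign of the fold change deposited by the authors runs opposite to those names.

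A ribosome that has been stopped on an mRNA shields a short stretch of it from nuclease, and sequencing these footprints counts the ribosomes on each coding sequence. An input library of the same cells counts the mRNA, so that RPF over input gives the ribosome load per mRNA, which is called TE. mRNAs differ in TE through features of the 5′ UTR such as upstream start codons and protein-bound hairpins, through the coding sequence, and through signals such as growth or nutrient state. mRNAs of ribosomal proteins and elongation factors carry a terminal oligopyrimidine (TOP) tract at the 5′ end, which lets growth signals set how many of them are translated.

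The depth of the 4 libraries differed widely. The knockout RPF libraries held 268255 and 140163 reads, with a median of 14 and 7 reads per listed gene, while the knockout input libraries held 9043982 and 33609787 reads with medians of 472 and 1758. A single read was worth 8.22 and 15.6 units in RPF replicates 1 and 2, against 0.234 and 0.0630 units in input. Fewer than 10 reads were found for 38.5% of genes in RPF replicate 1 and for 59.1% in RPF replicate 2. Over the 6190 genes, which share their libraries and are no replicates, the Pearson correlation of log2 values came to 0.832 between the RPF libraries and 0.997 between the input libraries. Of the 15 markers of undifferentiated ESCs that were set, 14 were listed, with summed RPF values of 17402 and 17899 and summed input values of 14861 and 14477. Of 9 primitive endoderm markers 5 were listed (summed RPF 1980 and 1462, summed input 966 and 1044), of 6 trophoblast markers 2 (RPF 181 and 249, input 91.8 and 84.4) and of 8 fibroblast markers 1 (Cald1, RPF 32.9 and 31.1, input 50.8 and 56.8).

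The members were bounded by their RPF. Of the 1935 listed genes left out, 1741 failed on RPF alone, 42 on input alone and 152 on both. Just inside the RPF limit lay Ankrd46, with a mean RPF of 50.8 from 1 and 6 reads, and just outside lay Zkscan3, with 48.9 from 10 and 1 reads. Just inside the input limit lay Wiz at a mean input of 10.02, and just outside lay Zfp935 at 9.92. By this rule alone the 767 members with a mean input under 50 had to have a TE above 1. Genes of low input and low TE are therefore absent from the members, and genes with a mean input of at least 100 and no RPF limit (4317 genes) were run beside them.

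TE spread widely over the genes of the knockout cells. The median TE was 1.09 in the deposited units, whose zero is set by each library's own scaling, and the middle 50% of genes lay between 0.720 and 1.70. The 5th and 95th percentiles of TE were 0.405 and 3.72, and the extremes lay at 0.137 and 50.3. Each gene was therefore set against the library medians: log2 of the value plus 10 was centred on the median gene of each library, and relative TE is the mean of the RPF libraries minus that of the input libraries. This relative log2 TE spanned 2.93 from the 5th to the 95th percentile, a 7.62-fold range. Its SD over genes was 0.89, against an error SD of 0.40 for the mean of both RPF libraries, taken from their difference. Among the 3166 members with at least 10 reads in each RPF library the SD over genes was 0.92 and the error SD 0.25, and the replicates agreed at r = 0.865, against 0.660 for all members.

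**Figure D1:**
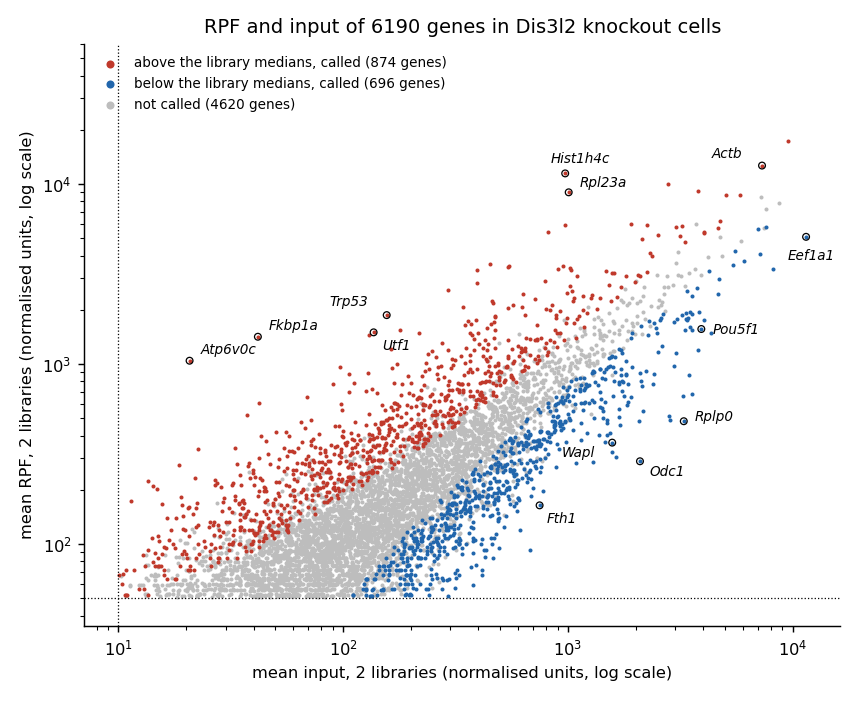
Mean RPF (vertical axis) against mean input (horizontal axis) of 6190 genes in Dis3l2 knockout cells, both in normalised units on log scales, with red points above and blue points below the library medians at an adjusted p under 0.05 (limma) and dotted lines at the 2 limits. Among genes with at least 10 reads in each RPF library Atp6v0c and Fkbp1a sit farthest above the cloud and Odc1 and Rplp0 farthest below it, and the RPF limit at 50 cuts the lower left of the cloud.

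By limma, 1570 of 6190 genes differed from the library medians at an adjusted p under 0.05, which is 25.4% of those tested. RPF over input was above the medians for 874 genes (14.1%) and below for 696 (11.2%). edgeR called 2482 genes (40.1%) and DESeq2 2699 genes (43.6%) on the whole reads. Both RPF values lay beyond both input values for 70.4% of genes, 37.5% higher in RPF and 32.8% lower. A relative TE over 2-fold above the medians was measured for 874 genes and over 2-fold below for 652, and over 4-fold for 131 and 53. Among members with at least 10 reads in each RPF library 711 were called above and 433 below, against 163 and 263 of the other 3024. Leaving out either input library ended every limma call (0 genes, with 878 and 883 at an unadjusted p under 0.05, where edgeR called 1119 and 1124), and leaving out either RPF library raised the count to 5210 and 5225.

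**Figure D2:**
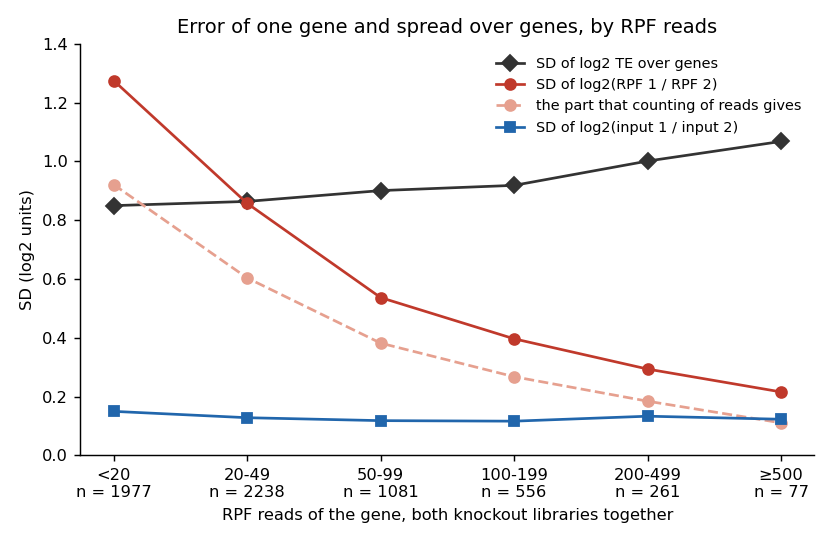
SD in log2 units (vertical axis) by the number of RPF reads of a gene in both knockout libraries together (horizontal axis, 6 classes with their numbers of genes): the spread of log2 TE over genes (black), the difference between the RPF replicates (red), the part of it that counting gives (dashed) and the difference between the input replicates (blue). Between RPF replicates the SD was 1.28 in genes under 20 reads and 0.22 in genes with at least 500 reads, while the input replicates stayed between 0.12 and 0.15.

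The share of genes called followed the reads. Under 20 RPF reads in all, 12.1% of 1977 genes were called, and at 500 reads or more 70.1% of 77 genes were called. In the lowest class counting alone gave an SD of 0.92 between RPF replicates, against 1.28 measured and 0.85 for the spread of TE over genes. A single gene of that class thus differed as much between replicates as genes differed from each other. In the class that starts at 100 reads the SD between replicates was 0.40 and that over genes 0.92.

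The highest TE belonged to Atp6v0c, which encodes the ring-forming c subunit of the vacuolar proton pump (GRCm38 chr17:24163866-24169702, minus strand). Its RPF was 781 and 1306 units in the knockout RPF libraries, from 95 and 84 reads, against 23.0 and 18.5 units of input. Its TE was 50.3 and its relative log2 TE 5.04 ± 0.33 (SE, n = 2 libraries a kind, limma adjusted p = 0.0081). Of its coding 30-mers, the stretches of 30 bases that a footprint could match, 92.9% also occur in transcripts of other genes in GENCODE M21, and how reads that match several genes were counted is not given in the sources used here. Both RPF values lay beyond every input value, but this was a condition for naming the farthest genes and is no result.

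Fkbp1a, the small prolyl isomerase that binds FK506 and rapamycin (chr2:151542483-151561692, plus strand), came next and was the more precisely measured. Its RPF was 1405 and 1431 units, against 39.4 and 44.1 units of input, which gave a TE of 34.0 and a relative log2 TE of 4.77 ± 0.14 (SE, adjusted p = 0.0068). The RPF libraries differed little for it, and 17.1% of its coding 30-mers were shared.

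The other genes of the top 12 had TEs between 9.92 and 16.7. Among them were Hsd17b14 (a steroid dehydrogenase), Hist1h4c (a histone H4 gene), Trp53 (the p53 tumour suppressor), Ubqln2 (a ubiquilin, which carries ubiquitinated proteins to the proteasome), H1fx (a linker histone variant), Utf1 (a chromatin protein of ESCs), Myc (a growth-promoting transcription factor), Aarsd1 (an alanyl-tRNA editing protein) and Mt2 (a metallothionein). Trp53 had an RPF of 1734 and 2006 units, against 149 and 164 units of input, for a relative log2 TE of 3.48 ± 0.15 (SE). Utf1 had an RPF of 1569 and 1431 units, against 127 and 146 units of input, with none of its coding 30-mers shared. Non-overlap of the RPF and input values was a condition for entering the top 12. Aarsd1 was the least precise of them, with 140 and 311 units of RPF from 17 and 20 reads, against 13.4 and 13.7 units of input, and 96.8% of its coding 30-mers were shared.

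**Figure D3:**
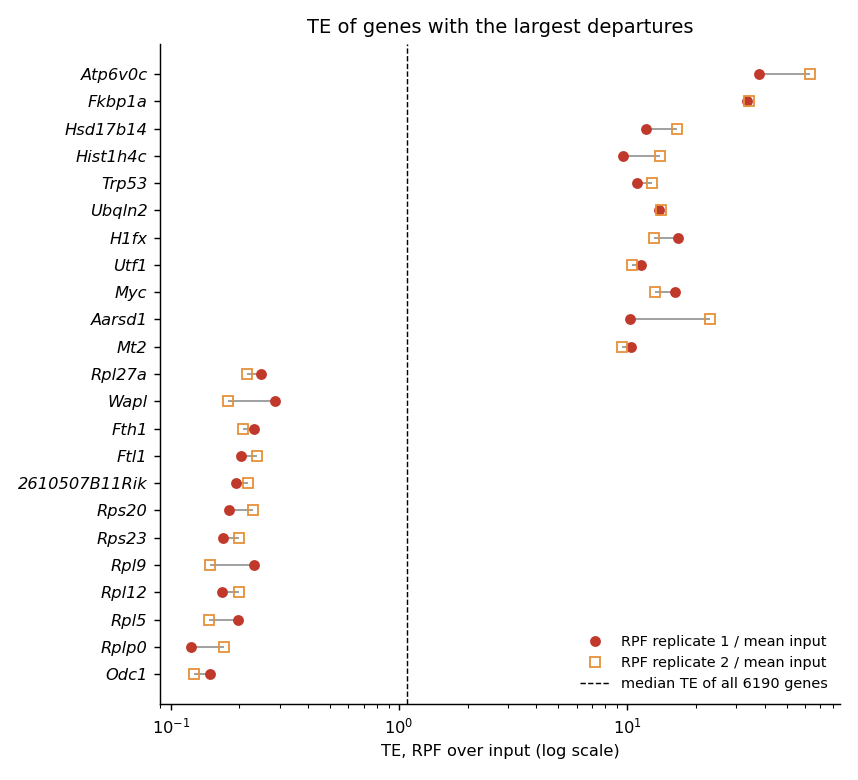
TE (horizontal axis) of named genes among the 12 farthest above and the 12 farthest below the library medians (log scale), as RPF replicate 1 (filled circles) and RPF replicate 2 (open squares) over the mean of both input libraries, with the median TE of all 6190 genes as a dashed line. Genes were chosen with both RPF values beyond both input values, so replicates on the same side of the line are no result. The gap between replicates is widest for Aarsd1 and Atp6v0c.

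Among genes with at least 10 reads in each RPF library the lowest TE belonged to Odc1, ornithine decarboxylase, which makes the first polyamine of the pathway (chr12:17544794-17551505, plus strand). Its RPF was 312 and 264 units from 38 and 17 reads, against 2070 and 2117 units of input. Its TE was 0.138 and its relative log2 TE -2.84 ± 0.11 (SE, limma adjusted p = 0.0068), with 83.1% of its coding 30-mers shared. Of the 12 genes farthest below the medians 7 encode ribosomal proteins (Rplp0, Rpl5, Rpl12, Rpl9, Rps23, Rps20 and Rpl27a). Besides Odc1 the others were Fth1 and Ftl1 (the ferritin chains), Wapl, which releases cohesin from chromosomes, and 2610507B11Rik. Wapl had an RPF of 452 and 280 units, against 1536 and 1614 units of input, for a TE of 0.232 with no shared coding 30-mers. 2610507B11Rik had an RPF of 304 and 342 units, against 1560 and 1579 units of input, for a TE of 0.206, also with none shared.

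The list of polyamine and iron responsive mRNAs held the lowest median of the 29 gene lists. None of its 10 members was above the library medians and 6 were below (60%, against 11.2% of all members). Their median relative log2 TE was -0.93, against 0.04 for all members. Cells sense polyamines and iron largely at the level of translation: Odc1 and its inhibitor-of-antizyme Azin1 are held back by polyamines, and ferritin mRNAs carry an iron responsive element (IRE), a hairpin in the 5′ UTR that iron regulatory proteins grip when iron is scarce. Azin1 had an RPF of 90.4 and 156 units, against 329 and 321 units of input (TE 0.378, adjusted p = 0.045). Oaz1, the antizyme that destroys ornithine decarboxylase, had an RPF of 205 and 218 units, against 546 and 483 units of input (TE 0.411, adjusted p = 0.012), with 91.0% of its coding 30-mers shared. Srm, spermidine synthase, was not called, with an RPF of 550 and 311 units, against 353 and 311 units of input (TE 1.30, adjusted p = 0.49).

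The ferritin mRNAs stood together. Fth1 (chr19:9980598-9985098, plus strand) had an RPF of 173 and 156 units from 21 and 10 reads, against 665 and 832 units of input, a TE of 0.219 and a relative log2 TE of -2.14 ± 0.16 (SE, adjusted p = 0.0081). Ftl1 (chr7:45457944-45459884, minus strand) had an RPF of 263 and 311 units, against 1381 and 1214 units of input, a TE of 0.221 and a relative log2 TE of -2.16 ± 0.16 (SE, adjusted p = 0.0081). Of their coding 30-mers 23.5% (Fth1) and 95.6% (Ftl1) were shared. Tfrc, the transferrin receptor, whose IREs lie in the 3′ UTR, had an RPF of 649 and 669 units, against 989 and 997 units of input (TE 0.663, adjusted p = 0.024).

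The hairpins of the ferritin mRNAs are shown because they are the element that both share. Each runs 5′ to 3′ as DNA from the GENCODE M21 transcript, with the loop of 6 bases in capitals, the bulged c first and a stem of 5 base pairs on either side of the loop.
Fth1: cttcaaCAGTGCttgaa
Ftl1: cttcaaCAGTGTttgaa
The search took the loop CAGTGN on the transcript strand of the 5′ UTR with a bulged C and 5 paired bases, G with T allowed. It matched 11 of 6096 members with a 5′ UTR, which is 0.18%. Of these 11, 3 were called below the library medians (Ftl1, Fth1 and Eif2s1, the α subunit of initiation factor eIF2) and 1 above (Nasp, a histone chaperone). Over all members 11.2% were below and 14.1% above. Ftl1 and Fth1 were known beforehand to carry the element, so they lend the count no weight of their own. The matches had relative log2 TEs from -2.16 to 0.61, and a match is a description of letters and not a bound site.

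Upstream reading frames are another feature of the 5′ UTR through which mRNAs can differ in TE. Their part in the values given here was not tested. Atf4, the transcription factor of the integrated stress response (chr15:80255184-80257541, plus strand), had an RPF of 238 and 171 units from 29 and 11 reads, against 709 and 685 units of input. Its TE was 0.294 and its relative log2 TE -1.76 ± 0.18 (SE, adjusted p = 0.011). Its annotated 5′ UTR held 3 ATGs, shown here in order with 9 bases before and 4 after, the ATG in capitals, and the main start last.
Atf4 uATG1: ttttctctcATGgggc
Atf4 uATG2: gcggccaccATGgcgt
Atf4 uATG3: gcctaagccATGgcgc
Atf4 main start: ccccacaacATGaccg
The frame of uATG1 starts 475 bases before the main start and has 36 codons, and that of uATG2 starts 196 bases before it and has 3 codons. The frame of uATG3 starts 97 bases before the main start, has 59 codons and ends 83 bases past it, overlapping the main frame. The 14 members of the list of mRNAs known for upstream reading frames and stress control had 2 called above and 2 below, 14.3% each way, against 14.1% above and 11.2% below of all members. Uchl1, a ubiquitin hydrolase, was the highest of them with at least 10 reads in each RPF library, with an RPF of 657 and 684 units, against 203 and 206 units of input (TE 3.28, adjusted p = 0.0081). Ppp1r15b, a phosphatase subunit that restores eIF2, rested on 17 reads in RPF replicate 1 and 1 read in RPF replicate 2 and was not called (adjusted p = 0.15).

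Ribosomal protein mRNAs had low TE on the whole, with wide differences among them. Of 47 members encoding 60S proteins 24 were below the library medians and 10 above, with a median relative log2 TE of -0.70. Of 32 encoding 40S proteins 21 were below and 6 above, with a median of -0.78. Among all members 11.2% were below. The medians from RPF replicates 1 and 2 were -0.74 and -0.64 for 60S and -0.76 and -0.78 for 40S. Within the 79 genes TE ranged from 0.147 (Rplp0) to 8.92 (Rpl23a).

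Rplp0, the base of the acidic stalk of the large subunit, had an RPF of 403 and 560 units, against 3285 and 3273 units of input. Rpl23a, which lines the exit of the nascent chain tunnel, had an RPF of 10139 and 7853 units, against 1066 and 951 units of input, for a relative log2 TE of 3.11 ± 0.13 (SE, adjusted p = 0.0068). Rpl6 was similar, with an RPF of 6721 and 4136 units, against 837 and 789 units of input (TE 6.68). Rps21 and Rps27 were the highest of the small subunit at TEs of 2.62 and 2.49, and Rps23 and Rps20 the lowest at 0.184 and 0.205. Ribosomal protein genes have many processed copies in the genome, and 75 of the 79 had more than 50% of their coding 30-mers in other genes' transcripts, 34 of them all. Values of single members are for that reason uncertain.

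The remaining 4 ribosomal protein genes, picked for their low sharing after values were seen, had a median relative log2 TE of -0.62, against -0.73 for the 75 others. Rps3, which guards the mRNA entry channel, had an RPF of 3582 and 3188 units, against 8313 and 8053 units of input (TE 0.414, adjusted p = 0.0068). Rpl4 had an RPF of 4141 and 4043 units, against 7264 and 7063 units of input (TE 0.571, adjusted p = 0.0081). Rpl8 had a TE of 0.762 and did not pass the test (adjusted p = 0.071). Not all of the 4 genes are described.

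Other mRNAs of the translation machinery were found on both sides of the library medians. Among 16 elongation factors and other TOP mRNAs 5 were below (31.25%) and 2 above (12.5%), with a median of -0.32. All members had 11.2% below and 14.1% above. Eef1a1, which delivers aminoacyl-tRNA, had an RPF of 5111 and 5070 units, against 11930 and 11034 units of input (TE 0.443, adjusted p = 0.0073). Of its coding 30-mers 88.5% were shared. Tpt1 lay lowest of the list at a TE of 0.256, with 181 and 124 units of RPF from 22 and 8 reads, against 590 and 602 units of input, and with all its coding 30-mers shared. Eef2, the translocase, had an RPF of 5645 and 5971 units, against 7638 and 7604 units of input (TE 0.762, adjusted p = 0.030). Npm1, nucleophosmin, had a TE of 0.620 (adjusted p = 0.0096), with 86.4% of its coding 30-mers shared. Eif5a, which helps ribosomes past proline stretches, lay highest, with an RPF of 3632 and 3141 units, against 881 and 932 units of input (TE 3.74, adjusted p = 0.0068). Pabpc1, the poly(A)-binding protein, sat at the medians with a TE of 0.993. The 41 initiation factors had 6 above and 9 below, with Eif4b (TE 0.407) and Eif4g2 (TE 0.721) among those below and Eif1ax (TE 1.83) and Eif3g (TE 1.84) among those above. Of 20 cytosolic aminoacyl-tRNA synthetases 5 were above (25%) and 3 below (15%). Farsa and Vars, above, had a TE of 1.67 each, and Dars and Sars, below, had 0.520 and 0.672.

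Histone mRNAs had high TE. Of 58 replication-dependent histone genes, whose mRNAs end in a stem-loop in place of a poly(A) tail and are made in S phase, 31 were above the library medians and 2 below, with a median relative log2 TE of 0.83, against 14.1% above and a median of 0.04 for all members. The medians by class were 1.06 for 6 H1 genes, 0.76 for 15 H2A genes, 0.75 for 15 H2B genes, 1.86 for 10 H3 genes and 1.11 for 12 H4 genes. All 6 H1 genes were called above, and their median of shared coding 30-mers was 17.0%, against 78.1% to 88.5% in the core histone classes.

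Genes for the same histone differed. Hist1h4c had an RPF of 9358 and 13560 units, against 937 and 1009 units of input, for a TE of 11.8 (adjusted p = 0.0078). Hist1h4b, which encodes the same protein, had an RPF of 337 and 560 units, against 722 and 797 units of input, for a TE of 0.590 (adjusted p = 0.12). The coding 30-mers of these 2 genes were shared to 62.5% (Hist1h4c) and 78.4% (Hist1h4b), so that the split of reads between such relatives is uncertain. The 2 genes below the medians were Hist1h2ag and Hist1h2bc, whose coding 30-mers were all shared. Of the 9 replacement variants 4 were above (44.4%, against 14.1% of all members) and none below. H2afx, the variant phosphorylated at DNA breaks, had an RPF of 3821 and 3328 units, against 445 and 455 units of input (TE 7.94, adjusted p = 0.0068).

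**Figure D4:**
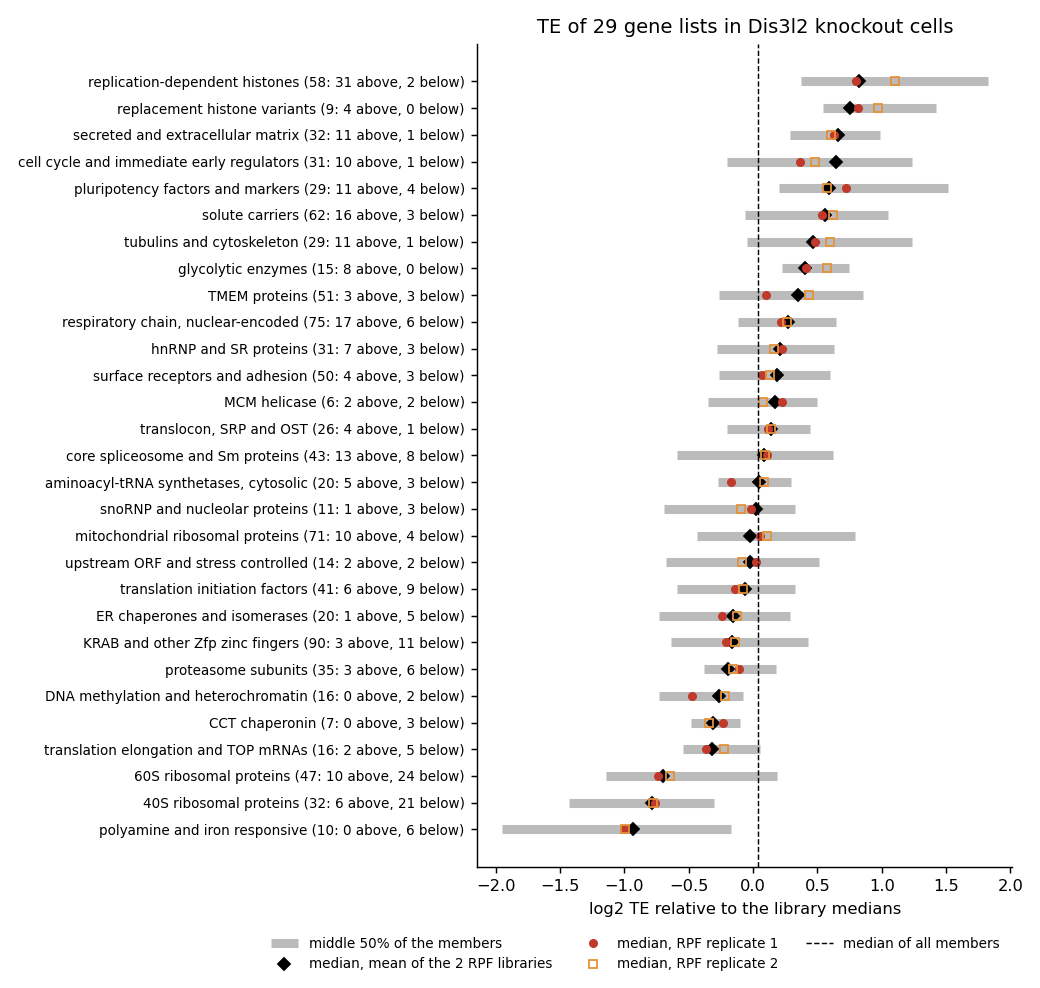
Relative log2 TE (horizontal axis) of 29 gene lists in Dis3l2 knockout cells, as the median (diamonds), the middle 50% of members (grey bars) and the medians from RPF replicate 1 (red circles) and RPF replicate 2 (orange squares), with the median of all members as a dashed line. The labels give the members and how many were called above and below, and histone lists lie at the top while ribosomal proteins and polyamine and iron responsive mRNAs lie at the bottom.

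The pluripotency factors and markers of ESCs were split in TE. Of 29 pluripotency genes 11 were above the library medians (37.9%) and 4 below (13.8%), with a median of 0.59. The shares of all members were 14.1% and 11.2%. Pou5f1 (Oct4), the central factor, lay among the low ones, with an RPF of 1545 and 1586 units, against 3956 and 3894 units of input, a TE of 0.399 and a relative log2 TE of -1.34 ± 0.08 (SE, adjusted p = 0.0073). Mkrn1 (TE 0.327), Fbxo15 (TE 0.370) and Zfp42 (TE 0.778, adjusted p = 0.049) were the other 3 below. Nanog was above, with an RPF of 1586 and 1197 units, against 493 and 449 units of input (TE 2.96, adjusted p = 0.011). Sox2, the partner of Pou5f1, had an RPF of 822 and 917 units, against 622 and 615 units of input, and did not pass (adjusted p = 0.062).

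The Krüppel-like factors of the list, Klf2, Klf4 and Klf5, were all above. Klf5 had an RPF of 715 and 591 units, against 67.0 and 70.4 units of input (TE 9.50, adjusted p = 0.0068). Klf2 had an RPF of 698 and 871 units, against 111 and 113 units of input (TE 7.01, adjusted p = 0.0081). Klf4 had an RPF of 370 and 342 units, against 144 and 144 units of input (TE 2.47, adjusted p = 0.012). Esrrb, an orphan nuclear receptor of the network, had an RPF of 1405 and 1586 units, against 362 and 374 units of input (TE 4.07, adjusted p = 0.0078). Utf1 was the highest of the list, and Lin28a, which binds let-7 precursors, had an RPF of 452 and 995 units, against 257 and 250 units of input, and did not pass (TE 2.86, adjusted p = 0.092).

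Short-lived regulators of the cell cycle and of growth were high too, with 10 of 31 above (32.3%) and 1 below (3.23%). Their median was 0.64, and it was 0.37 without RPF replicate 2. Under the filter on input alone it was 0.26, where the median of all genes was -0.18. Myc had an RPF of 304 and 249 units from 37 and 16 reads, against 18.5 and 18.9 units of input (TE 14.8, adjusted p = 0.0081). Mycn had an RPF of 477 and 389 units, against 162 and 175 units of input (TE 2.56, adjusted p = 0.014). Bub1, a spindle checkpoint kinase, was the member below, with a TE of 0.459. None of 16 genes of DNA methylation and heterochromatin was above and 2 were below (12.5%, against 11.2% of all members), where edgeR called 1 above and 8 below, DESeq2 7 below and the replicate block 5 below. Dnmt1, the maintenance methyltransferase, had an RPF of 904 and 1073 units, against 1311 and 1317 units of input (TE 0.752, adjusted p = 0.091). Of 90 Zfp zinc finger genes, many of them KRAB repressors, 3 were above (3.33%, against 14.1% of all members) and 11 below (12.2%, against 11.2%). Zfp57, which guards imprinted methylation, was among those above (TE 1.78, adjusted p = 0.026), and Zfp292 had an RPF of 230 and 156 units, against 491 and 513 units of input (TE 0.384, adjusted p = 0.020).

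The mRNAs translated at the endoplasmic reticulum (ER), the compartment with which the study is concerned, did not share a level. Secreted and extracellular matrix proteins were high, with 11 of 32 above (34.4%, against 14.1% of all members) and 1 below and a median of 0.66. Hspg2, the basement membrane proteoglycan perlecan, had an RPF of 1775 and 1633 units, against 448 and 494 units of input (TE 3.62, adjusted p = 0.0073). Ctsd, the lysosomal protease cathepsin D, had a TE of 3.78 (adjusted p = 0.019). Solute carriers were high as well, with 16 of 62 above (25.8%) and 3 below (4.84%). Their median was 0.56, and it was 0.18 under the filter on input alone, where the median of all genes was -0.18. Slc2a1, the glucose transporter GLUT1, had an RPF of 2021 and 2255 units, against 561 and 582 units of input (TE 3.74, adjusted p = 0.0078), the glutamine transporter Slc1a5 had a TE of 3.03 (adjusted p = 0.021), and the phosphate transporter Slc20a1 lay below at a TE of 0.484 (adjusted p = 0.036).

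TMEM proteins had 3 of 51 above and 3 below, with medians of 0.10 from RPF replicate 1 and 0.44 from RPF replicate 2, and surface receptors and adhesion molecules 4 of 50 above and 3 below. Both shares above were under the 14.1% of all members, and both shares below (5.88% and 6%) were under the 11.2%. The medians of the 2 lists, 0.35 for TMEM proteins and 0.19 for surface receptors, lay above the 0.04 of all members. The machinery of the ER lay near the medians. Of 26 genes of the translocon, the signal recognition particle and oligosaccharyltransferase 4 were above and 1 below, with Dad1 highest at a TE of 4.68 (adjusted p = 0.023) and Sec61g lowest at 0.495 (adjusted p = 0.016). Sec61a1, the channel itself, had an RPF of 493 and 435 units, against 406 and 407 units of input (TE 1.14, adjusted p = 0.35). Of 20 ER chaperones and isomerases 1 was above (5%) and 5 below (25%), with a median of -0.15. All members had 11.2% below and a median of 0.04. Pdia3, a disulfide isomerase, was the member above, with an RPF of 1109 and 840 units, against 455 and 490 units of input (TE 2.06, adjusted p = 0.021). Canx, the lectin chaperone calnexin, was below, with an RPF of 1709 and 1540 units, against 2155 and 2088 units of input (TE 0.766, adjusted p = 0.032). Hspa5, the ER Hsp70 chaperone BiP, had an RPF of 2317 and 1773 units, against 1706 and 1588 units of input (TE 1.24, adjusted p = 0.20), and the calcium pump Atp2a2 had a TE of 0.92 (adjusted p = 0.28).

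Glycolytic and cytoskeletal mRNAs were high. Of 15 glycolytic genes 8 were above (53.3%, against 14.1% of all members) and none below, with a median of 0.41. Gapdh had an RPF of 2613 and 1975 units, against 728 and 702 units of input (TE 3.21, adjusted p = 0.0093), with all its coding 30-mers shared, and the lactate dehydrogenase genes Ldha (TE 1.11) and Ldhb (TE 0.842) were not called. Nuclear-encoded subunits of the respiratory chain had 17 of 75 above (22.7%) and 6 below (8%, against 11.2% of all members) at a median of 0.27. The ATP synthase subunits Atp5j (TE 3.93) and Atp5g1 (TE 4.01, all its coding 30-mers shared) were highest. Atp5c1 (TE 0.620, adjusted p = 0.031) was among those below. Tubulins and cytoskeletal proteins had 11 of 29 above (37.9%) and 1 below (3.45%) at a median of 0.46. Actb, cytoplasmic β-actin, had an RPF of 12037 and 13296 units, against 7378 and 7245 units of input (TE 1.73, adjusted p = 0.013). Its near-identical relative Actg1 had a TE of 4.75, and 45.8% (Actb) and all (Actg1) of their coding 30-mers were shared.

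Large complexes differed less among their subunits in some cases. For comparison, 14.1% of all members were called above and 11.2% below. None of the 7 genes of the CCT chaperonin, which folds actin and tubulin, was above and 3 were below (42.9%). Their relative log2 TEs ran from -0.82 (Cct7, TE 0.574) to 0.00 (Cct5, TE 1.02). Proteasome subunits had 3 of 35 above (8.57%) and 6 below (17.1%). They ran from Psma3 at a TE of 0.269, with 91.7% of its coding 30-mers shared, to Psmb2 at 3.40. Mitochondrial ribosomal proteins had 10 of 71 above (14.1%, the share of all members) and 4 below (5.63%). Mrps12 was their highest at a TE of 3.58. Core spliceosomal proteins had 13 of 43 above (30.2%) and 8 below (18.6%). Highest were 2 subunits of the SF3A complex, Sf3a1 (TE 6.89, adjusted p = 0.0068) and Sf3a2 (TE 7.17, adjusted p = 0.014). Among 31 hnRNP and SR proteins 7 were above (22.6%) and 3 below (9.68%), with Srsf2 highest (TE 3.94, adjusted p = 0.0073). Of 11 snoRNP and nucleolar proteins 1 was above (9.09%), Nolc1 at a TE of 1.81, and 3 were below (27.3%), with Nop58 lowest at 0.385. The MCM helicase had calls on both sides within 1 complex: Mcm3 and Mcm5 were above (TE 1.49 and 1.47) and Mcm4 and Mcm6 below (TE 0.742 and 0.714). These calls depended on the setting. Of its 6 genes 3 were above and 1 below under the replicate block, and 2 above and 1 below under the filter on input alone.

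Of the transcript features examined, the GC content of the coding sequence moved most with TE. In the quintile of genes of lowest GC (31.9% to 46.8%) the median relative log2 TE was -0.53, and it was -0.14, 0.09, 0.32 and 0.51 in the quintiles that followed, the last spanning 57.5% to 75.4%. The rank correlation across 6188 genes was 0.421 (Spearman, genes sharing the same libraries, with no test), and it was 0.383 and 0.382 from RPF replicates 1 and 2 alone. It was 0.458 in the 3166 members with at least 10 reads in each RPF library and 0.426 in the 4125 members with no shared coding 30-mer. With mean RPF the rank correlation of GC was -0.067 and with mean input -0.318, so that GC moved more with input than with RPF.

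The relation to GC held inside some lists and not in others. It was 0.568 among 90 Zfp genes, 0.554 among 31 regulators of the cell cycle, 0.501 among 29 pluripotency genes and 0.425 among 62 solute carriers. Among 58 histone genes it was 0.087 and among 79 ribosomal protein genes 0.111. Set against the median of their own GC quintile, the list medians were 0.36 for replication-dependent histones, 0.43 for solute carriers, 0.50 for pluripotency genes, -0.75 for 60S and -1.18 for 40S proteins and -0.62 for polyamine and iron responsive mRNAs. Some of the other lists moved towards zero or across it, and some moved away from it. Secreted proteins lay at 0.30, the respiratory chain at 0.08, CCT at 0.07, MCM at -0.05 and surface receptors at -0.07, against 0.66, 0.27, -0.31, 0.17 and 0.19 before. The Zfp genes, with a median GC content of 49.3%, then lay at -0.01. Among the lists that moved away was that of the translocon, signal recognition particle and oligosaccharyltransferase, at 0.32 against 0.14 before. ER chaperones lay at -0.27 against -0.15, and core spliceosomal proteins at 0.23 against 0.09.

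**Figure D5:**
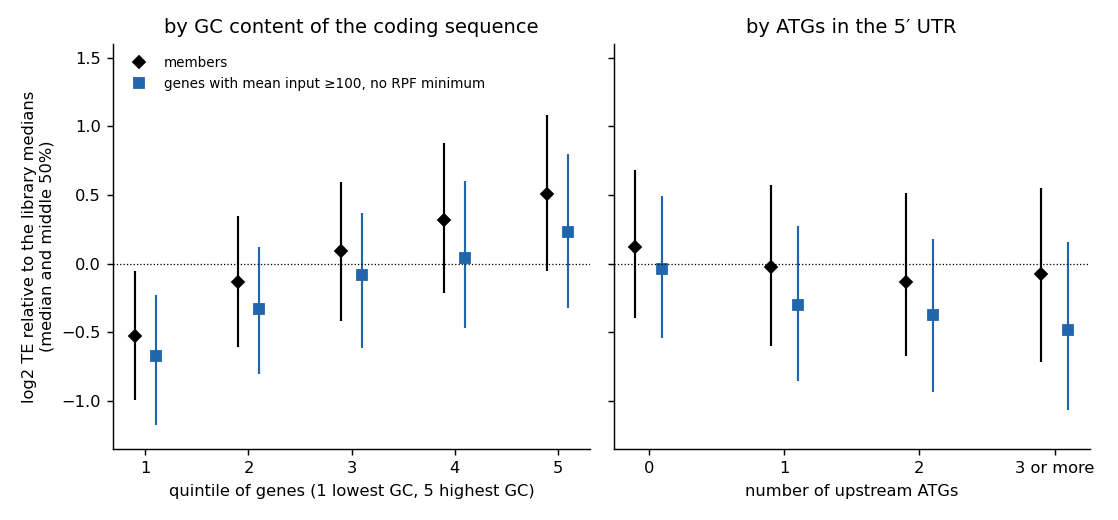
Relative log2 TE (vertical axis, median with the middle 50% of genes) by quintiles of GC content of the coding sequence (left) and by the number of ATGs in the 5′ UTR (right), for members with a coding transcript or a 5′ UTR (black diamonds) and for genes with a mean input of at least 100 and no RPF limit (blue squares). The medians climb over the GC quintiles, and genes without upstream ATGs lie above those with them in both sets.

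ATGs in the 5′ UTR moved with TE to a smaller extent. The median relative log2 TE was 0.12 in 3276 genes without an upstream ATG, -0.03 in 1329 genes with 1, -0.13 in 589 genes with 2 and -0.08 in 902 genes with 3 or more. Without the RPF limit and with a mean input of at least 100 the medians were -0.04, -0.30, -0.38 and -0.48. Within the quintiles of GC content, genes with any upstream ATG lay 0.21, 0.22, 0.15, 0.18 and 0.02 below those with none, from the lowest GC to the highest. The base 3 before the main ATG, which is part of the Kozak context of the start codon, went with medians of 0.03 for A, 0.02 for C, 0.05 for G and -0.02 for T.

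Coding length moved with TE more than upstream ATGs among the members, and the lengths of the UTRs less. The median was 0.28 in the quintile of shortest coding sequences and -0.19 in that of the longest, with a rank correlation of -0.187. For upstream ATGs the rank correlation was -0.118, for 5′ UTR length -0.037, for 3′ UTR length -0.029 and for the coding share of the transcript -0.102. With a mean input of at least 100 and no RPF limit the order was reversed, at -0.204 for upstream ATGs and -0.162 for coding length. There 5′ UTR length stood at -0.114, 3′ UTR length at -0.095 and the coding share at -0.024. Mean input had a rank correlation of -0.460 with relative TE among the members, where input is the denominator and the RPF limit removes low values, and of -0.047 among genes with a mean input of at least 100 and no RPF limit. Members with more than 50% of their coding 30-mers shared (542 genes) had a median of 0.07, against 0.04 for the 4125 with none shared.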

How the data were processed

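Cultures of Dis3l2 knockout ESCs, 2 biological replicates per the study's methods, gave 2 RPF and 2 input libraries (cycloheximide, rRNA depletion, TruSeq Ribo Profile). The authors removed rRNA and tRNA reads and aligned to canonical mm10 gene models with Bowtie, allowing 1 mismatch. The version is not stated. The authors deposited signal values called RPKM. These equal whole reads over a single factor per library, without gene length (100% whole within 0.02 read). Length cancels in TE only if input and RPF were counted over the same bases, which is not stated for input. Depth speaks for counting error alone. A deposited fold change of TE between genotypes was not used.

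TE was mean RPF over mean input. limma 3.58.1 in R 4.3.3 (eBayes with a trend, two-sided, 4 libraries, prior degrees of freedom 2.1) compared RPF with input on log2(value + 10), which understates changes of low values, after centring each library on its median gene, with Benjamini-Hochberg adjustment over 6190 genes at 0.05. Alternatives were edgeR 4.0.16 and DESeq2 1.42.0 on the whole reads, pseudocounts of 1 and 30, no filter, means of 100 (input) and 200 (RPF), input of at least 100 alone, no centring, thinned reads, a replicate block and each library left out. The tools were tested on simulated data. Named genes were the 12 farthest from the medians per direction among called genes with at least 10 reads in each RPF library. For these 12, both RPF values also had to lie beyond both input values. Up to 2 highest and 2 lowest genes of each list with at least 10 reads in each RPF library were named too, and genes set beforehand. Not all of them are described, and some items are not reported here. Klf2, Klf4, Esrrb, Oaz1, Ppp1r15b, Hist1h2ag, Eif2s1 and Nasp were added after their values were seen. Members and lists were chosen with earlier results of these data known. All 8125 identifiers matched GENCODE M21 (GRCm38), and 14 date-like symbols were repaired.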

Additional observations from a re-analysis of the deposited data

How the results depend on the processing

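Of 1570 genes called (874 above, 696 below), the pseudocounts, no filter, no centring, thinned reads and the replicate block kept the counts within 1.5 times, and so did the filter on input alone (1392 of 4317 genes, 646 above and 746 below, where the median of all genes lay 0.22 lower). The stricter filter left 2415 genes and called 553 above. edgeR called 2482 genes, of which 1252 were below, and DESeq2 2699 (1469 above, 1230 below), and in each direction at least 97.9% of the limma calls were among them. With each library left out the count ranged from 0 to 5225, with 0 to 2814 above and 0 to 2559 below, and with edgeR, added after the data were seen, from 1119 to 2887 (524 to 1394 above, 595 to 1493 below). A fit without a library has 3 samples, and its lone library is assumed to vary like the pair. The sources do not state that RPF and input libraries of equal number came from the same culture. The differences between replicates correlated at 0.007 between RPF and input, and the replicate block gave 1851 calls. The SD of log2 TE was 0.89, and 0.97 with a pseudocount of 1, 0.78 with 30, 0.82 with the stricter filter and 0.89 to 0.99 with a library left out. Median TE kept its side of all genes in 14 settings for the lists of histones, 60S and 40S ribosomal proteins, glycolysis, solute carriers, secreted proteins, TMEM proteins, pluripotency, cell cycle, cytoskeleton and polyamine and iron responsive mRNAs. In 1 to 6 of the settings it changed side for initiation factors, aminoacyl-tRNA synthetases, mitochondrial ribosomal proteins, the proteasome, MCM, nucleolar proteins, ER chaperones, surface receptors, Zfp genes, upstream ORF genes and heterochromatin.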

Other observations

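Of 8 listed mitochondrially encoded genes, chosen after their values were seen and translated on mitochondrial ribosomes, 5 were above the library medians and 1 below. The shares of all members were 14.1% above and 11.2% below. mt-Cytb, cytochrome b of complex III, had an RPF of 2777 and 2379 units, against 271 and 318 units of input (TE 8.76, limma adjusted p = 0.0068). mt-Nd5, a subunit of complex I, had an RPF of 1232 and 1742 units, against 4876 and 3780 units of input (TE 0.344, adjusted p = 0.023). mt-Co1, the catalytic subunit of complex IV, had an RPF of 5308 and 5536 units, against 4172 and 3867 units of input (TE 1.35, adjusted p = 0.037). The median GC content of their coding sequences was 36.4%, against 52.3% over all members.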
